A study of Mus musculus with 36 samples.

Results

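A CpG whose own C and G are the same in the B6 and C3 mouse strains can still lie beside a base that differs between them. The CpGs described here have at least 1 single-nucleotide variant (SNV) between the strains within 1 to 10 bp of their C or G, carry no SNV themselves, lie on an autosome, and had at least 10 reads in each of the 12 parents. Of 18887127 autosomal CpGs in the table, 367230 lay 1 to 10 bp from an SNV, and 270690 of these had the reads. Those 270690 members were compared with 3544227 control CpGs whose nearest SNV lay more than 100 and at most 1000 bp away.

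Liver DNA was sequenced after bisulfite treatment, which converts unmethylated cytosine and spares methylated cytosine, so that the share of unconverted reads at a CpG is its methylation level. The 12 parents were 3 sires and 3 dams of C57BL/6N (B6) and 3 sires and 3 dams of C3H/HeN (C3), which had all been mated at week 10. The dams had borne and nursed litters, with weaning at week 16. The 12 offspring were 3 males and 3 virgin females from B6 dams and C3 sires (B6C3F1), and 3 males and 3 virgin females from C3 dams and B6 sires (C3B6F1). All 24 animals were killed at 20 weeks of age. Each cross is represented by 3 families of a sire, a dam and an F1 animal of each sex, so F1 animals of a family share parents, and each sample is liver DNA of 1 animal.

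CpG methylation in mammals is placed on both strands and copied at each replication by maintenance methyltransferases, whose action depends on the bases and on other CpGs nearby. Proteins that bind DNA can leave the CpGs beneath and around them less methylated, and the binding of some is itself hindered or favoured by a methylated CpG in the recognition sequence. In an F1 animal both parental alleles meet the same proteins, and its reads mix them.

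The stretches below show what such a member looks like. They were chosen by a fixed rule among members with 1 SNV within 10 bp whose strains did not overlap, so their differences are a description and carry no test. Each line is 30 bases of the plus strand of mm9, with the bases of the named strain, and the capitals mark the CpG and the SNV. Substitutions are written with the B6 base, the position counted from 1 at the 5′ end of the stretch, and the C3 base. The first pair lies in an intron of Eri1, which encodes an exoribonuclease, at chr8:36534441-36534470 (A10G).
Eri1 intron, B6: caggcagtgAgagcCGgagcactgctttgt
Eri1 intron, C3: caggcagtgGgagcCGgagcactgctttgt

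The next pairs were among the largest differences beside an SNV that left every CpG in place. The first lies between genes at chr7:70947906-70947935 (G18T), 44006 bp from Otud7a, and the second between genes at chr7:151771731-151771760 (G10A), 2709 bp from Ano1, which encodes a chloride channel.
Between genes near Otud7a, B6: cgagtcgttctggcCGgGgagctagggttt
Between genes near Otud7a, C3: cgagtcgttctggcCGgTgagctagggttt
Between genes near Ano1, B6: ttgccagcaGagggCGgcagccaccaacag
Between genes near Ano1, C3: ttgccagcaAagggCGgcagccaccaacag

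At 3 of the largest differences the C3 base made another CpG. In the first, with B6 higher, the stretch lies in an intron of BC048546 at chr6:128523151-128523180 (C4T and G26C, of which G26C makes the CpG). The next, with C3 higher, lies between genes at chr2:180563826-180563855 (T12C), 52235 bp from Bhlhe23. The last, also with C3 higher, lies in an intron of Snap47, a relative of synaptic membrane fusion proteins, at chr11:59237226-59237255 (A17C).
BC048546 intron, B6: accCcgacttagagCGtttctccctGgaag
BC048546 intron, C3: accTcgacttagagCGtttctccctCgaag
Between genes near Bhlhe23, B6: taccctgctaaTgcCGtggagccaaaatgc
Between genes near Bhlhe23, C3: taccctgctaaCgcCGtggagccaaaatgc
Snap47 intron, B6: catgaggcctgagcCGAgagtacaggtcag
Snap47 intron, C3: catgaggcctgagcCGCgagtacaggtcag

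Near start sites of protein-coding genes, the largest differences included a CpG in the first part of Phf20, a chromatin-binding protein, at chr2:156049992-156050021 (G14A), 1 upstream of Tlr6, a receptor for bacterial lipopeptides, at chr5:65351342-65351371 (T17C), 1 in an intron of Rfxank, a subunit of the factor that drives major histocompatibility class II genes, at chr8:72662144-72662173 (T17C), and 1 in the coding sequence of Tap1, a subunit of the peptide transporter that serves class I molecules, at chr17:34328324-34328353 (G19A).
Phf20 intron, B6: gtttgtctagcaaGCGtgaagccctacgtt
Phf20 intron, C3: gtttgtctagcaaACGtgaagccctacgtt
Upstream of Tlr6, B6: taggagtggtttggCGTcatctcttggtac
Upstream of Tlr6, C3: taggagtggtttggCGCcatctcttggtac
Rfxank intron, B6: aattagccaaatctCGTggtccccaagatg
Rfxank intron, C3: aattagccaaatctCGCggtccccaagatg
Tap1 coding sequence, B6: ccttgaggccttatCGgcGatgcctactgt
Tap1 coding sequence, C3: ccttgaggccttatCGgcAatgcctactgt

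The last pairs show an SNV that makes or removes the letters of a binding motif. At the C/EBP motif and the E-box the same SNV also removes another CpG in C3. The B6 allele in an intron of Polr1a, the large subunit of RNA polymerase I, holds a forkhead (FOXA) motif at chr6:71926457-71926486 (T25A), whose last letter lies just past the stretch shown. The C3 allele holds an HNF4 motif in an intron of Gm20388 at chr8:124696782-124696811 (G5A), a C/EBP motif between genes at chr8:36387513-36387542 (C19T), an E-box in an intron of Gm5087 at chr14:13997262-13997291 (G14A), and a GATA motif in an intron of Ptprg, a receptor phosphatase, at chr14:12481659-12481688 (T5A).
FOXA motif in B6, Polr1a intron, B6: gccagggctttcttCGtgttgcttTgttta
FOXA motif in B6, Polr1a intron, C3: gccagggctttcttCGtgttgcttAgttta
HNF4 motif in C3, Gm20388 intron, B6: ctcaGagtcctcagCGtctctaactacggg
HNF4 motif in C3, Gm20388 intron, C3: ctcaAagtcctcagCGtctctaactacggg
C/EBP motif in C3, B6: tagaaactacagaaCGatCgcaaaagaatt
C/EBP motif in C3, C3: tagaaactacagaaCGatTgcaaaagaatt
E-box in C3, Gm5087 intron, B6: ctattgatttggcGCGtgattttcatgcac
E-box in C3, Gm5087 intron, C3: ctattgatttggcACGtgattttcatgcac
GATA motif in C3, Ptprg intron, B6: agatTagaaggcagCGttcaggaatacgct
GATA motif in C3, Ptprg intron, C3: agatAagaaggcagCGttcaggaatacgct

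Methylated and unmethylated counts summed over autosomal CpGs were 365740739 to 619888157 per animal, where a read counts at each CpG it covers. There were 19.4 to 32.8 reads per autosomal CpG and 20.3 to 36.1 per member. The level of a single CpG in 1 animal thus carries a large counting error. The statements below rest on means over many CpGs or on all 6 animals of a strain. The labelled tissue was checked at promoters, where the defining genes of hepatocytes are little methylated. Within 500 bp of the start sites of the hepatocyte genes Alb, Apoa1, Ttr and Tat methylation was 6.44 to 43.9% over all animals. It was 70.1 to 91.8% at the leukocyte genes Ptprc and Cd3e and 67.4 to 80.0% at the heart muscle gene Myh6. At Cd3e B6 had 84.9% ± 1.98 (SD, n = 6) and C3 89.1% ± 1.77, and at Myh6 B6 had 71.6% ± 3.22 and C3 75.7% ± 2.57. Ttr and Apoa1 were lower in C3, with 19.5% ± 3.91 and 16.6% ± 4.98 in B6 and 14.2% ± 2.63 and 14.1% ± 1.69 in C3. Alb and Tat had 28.6% and 26.7% in B6 and 28.0% and 27.4% in C3. The animals of the strains overlapped at each of these genes. The part of other cell types in the strain differences below was not tested.

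Most members lay outside coding sequence. Of all members 49.99% were intergenic, 43.8% intronic, 3.56% in coding sequence and 2.03% in untranslated regions, against 48.6%, 42.4%, 5.90% and 2.45% of controls. Within 1 kb of a protein-coding start site lay 4.02% of members and 5.49% of controls. In 95.5% of members the SNV was the only 1 within 10 bp, and 47.0% had exactly 1 SNV within 100 bp. Because 17.9% of members share their nearest SNV with another member, they are not independent of each other.

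Taken over all members, a difference between the strains beyond the spread between animals was not detected once controls were subtracted, though it was under 2 other ways of reading the levels. Member methylation had a low of 78.4%, a median of 78.8% and a high of 79.5% over the 6 B6 animals, and 79.1%, 79.5% and 80.3% over the 6 C3 animals. Controls lay at 76.2%, 76.5% and 77.3% in B6 and at 76.9%, 77.3% and 78.1% in C3. C3 was thus higher at both kinds of CpG, with overlap between the strains. Relative to controls, members stood 2.23 ± 0.02 percentage points (SD, n = 6) higher in B6 and 2.22 ± 0.01 in C3, a difference of 0.01 ± 0.01 (SE), at p = 0.169 in an exact permutation test, two-sided, of 6 against 6 animals, whose smallest possible p is 0.00216. With at least 20 reads in each parent the difference was 0.0765 at p = 0.00433, and with summed counts 0.146 at p = 0.026, both in the exact permutation test.

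At most distances no difference passed either. With controls subtracted, B6 minus C3 lay between -0.06 and 0.08 percentage points at every distance from 1 to 10 bp. Only at 3 bp did the difference pass, at 0.08 ± 0.03 (SE), with an adjusted p of 0.0216 in the exact permutation test over 10 distances. Leaving out 1 animal moved the count of distances called between 1 and 2, the latter without dam 1 of C3. With controls beyond 500 and up to 1000 bp away, and with same-numbered animals of a sex paired, no distance passed in the exact permutation tests, where 4 and 1 had an unadjusted p below 0.05. The smallest p of the paired test is 0.031, so a single distance could not pass it after adjustment over 10 distances, whatever its value. With at least 20 reads, and with summed counts, 4 distances passed.

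The strains stood apart once members were grouped by the base each strain carried. Below, bases are read on the strand on which the SNV lies 3′ of the CpG, so that A to C means A in B6 and C in C3, and control means are subtracted. All 12 substitutions passed, each at an adjusted p of 0.00216 in the exact permutation test, and the 6 animals of B6 did not overlap the 6 of C3 in any of them. The SEs cover the spread between animals and treat the CpGs as a fixed set. So do the tests, and 82.5% of all words of 6 bases, described below, also passed in the exact permutation test. The count of substitutions that passed is therefore no result by itself.

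At the 45421 members with T in B6 and C in C3, B6 animals had a low of 1.48, a median of 1.53 and a high of 1.63 percentage points above controls, and C3 animals 3.68, 3.80 and 3.897. At the 46587 members with C in B6 and T in C3 the order was turned: B6 animals lay at 3.77, 3.85 and 3.91 and C3 animals at 1.52, 1.56 and 1.66. The strain with C was higher in both sets by about the same amount, at -2.25 ± 0.04 (SE) for B6 minus C3 in the first and 2.26 ± 0.04 in the second.

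The strain with C was also higher at SNVs of A and C. B6 minus C3 was -2.47 ± 0.07 percentage points (SE) at 10826 members with A to C and 2.19 ± 0.05 at 10990 with C to A. Transitions of A and G, with 46320 and 47232 members, differed less, at -0.66 ± 0.04 for A to G and 0.74 ± 0.03 for G to A. SNVs of A and T were at 0.52 ± 0.11 for A to T and -0.67 ± 0.07 for T to A. In all 12 substitutions the mean of the 12 F1 animals lay between the means of the strains.

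Each pair of bases can be read from both directions together, as the mean difference between alleles with the first base and alleles with the second. C was higher than T by 2.26 ± 0.04 percentage points (SE), than A by 2.33 ± 0.04 and than G by 1.07 ± 0.04. G was higher than T by 1.14 ± 0.04 and than A by 0.70 ± 0.03, and A was higher than T by 0.59 ± 0.04. All 6 pairs passed at an adjusted p of 0.00216 in the exact permutation test. Within SNVs that neither made nor removed another CpG, C over T was 1.01, A over C was -1.35 and A over G turned to 0.34, also at an adjusted p of 0.00216 in that test.

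The order of the bases depended on how far from the CpG they stood. At 1 bp, C over T was 7.86 ± 0.10 percentage points (SE), A over C was -7.79 ± 0.12, G over T was 4.92 ± 0.12 and A over G was -4.46 ± 0.09, while A over T was 0.07 ± 0.09. A CpG followed by C or G was thus more methylated than the same CpG followed by A or T. Both sets of CpGs gave this order separately, with 7.88 where B6 carried C and -7.83 where C3 did.

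At 2 bp the order changed. A over G was 3.48 ± 0.04 percentage points (SE), A over T 2.17 ± 0.10 and A over C 1.64 ± 0.08, so that A, among the lowest bases at 1 bp, was the highest at 2 bp. At 3 bp A over T was 3.20 ± 0.11 and C over T 2.99 ± 0.05. A over C was only 0.04 ± 0.08 and did not pass, at an adjusted p of 0.634 in the exact permutation test. Without SNVs that make or remove another CpG, A over C at 3 bp passed at 1.18, with an adjusted p of 0.00295 in the exact permutation test. C over T was then 1.81.

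Over the 60 combinations of base pair and distance 53 passed at an adjusted p below 0.05, 32 with the first base higher and 21 with it lower. Beside the 82.5% of all words of 6 bases that passed in the exact permutation test, such a count is no result by itself. The median size of the 6 pairs was 4.69 percentage points at 1 bp, 1.87 at 2 bp, 1.33 at 5 bp and 0.12 at 10 bp, where the largest was 0.40 and 2 of 6 passed. Without SNVs that make or remove another CpG, a choice made after these values were seen, 52 of 60 passed, but 11 of the 60 changed sign, 8 of them called in both sets. A over G went from -0.88 to 0.41 at 4 bp and from -0.95 to 0.48 at 8 bp, and C over T from 0.60 to -0.72 at 2 bp and from 0.78 to -0.67 at 9 bp. The fall with distance also ended earlier. The median size was then 0.38 at 8 bp and 1.08 at 10 bp, with A over G at 1.53 and C over T at -1.05.

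**Figure D1:**
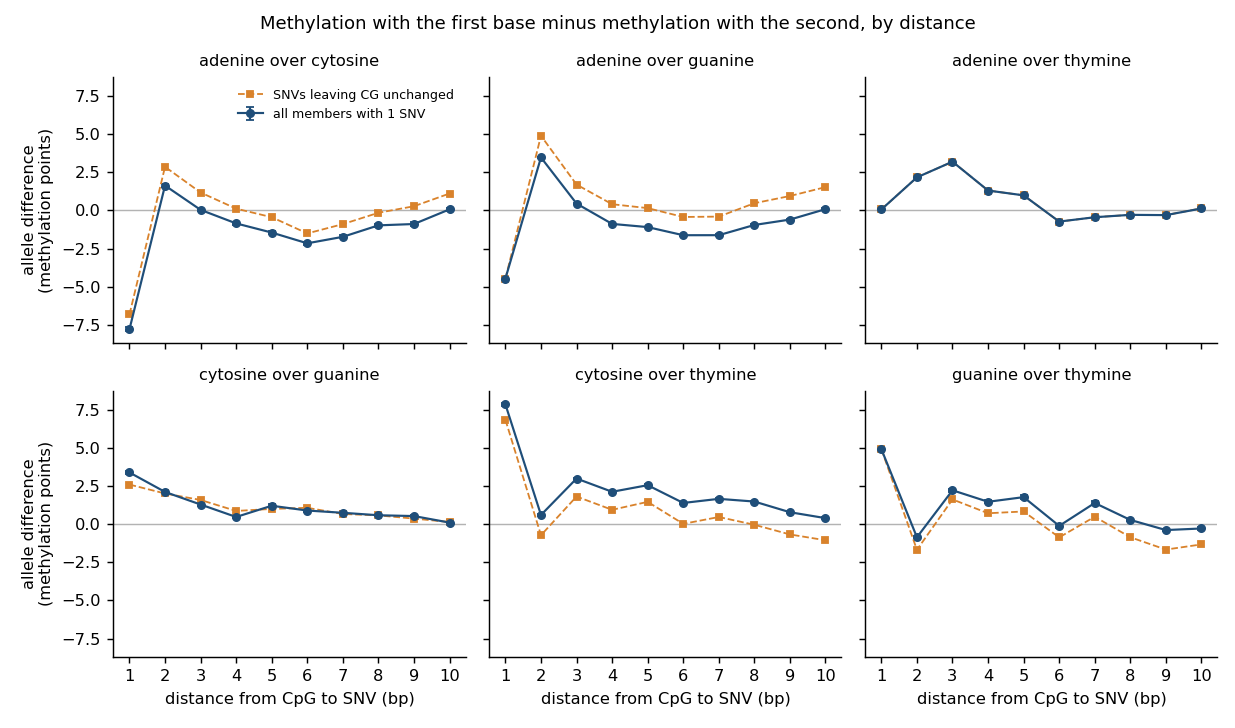
Allele difference (methylation with the first base minus methylation with the second, in percentage points) against the distance from the CpG to the SNV in bp, 1 panel for each pair of bases. Blue points are all members with 1 SNV, with SE over animals, and orange squares those whose SNV leaves every other CpG in place, and among the blue points the size is largest at 1 bp for 5 of the 6 pairs, with cytosine over thymine at 7.86 there, while adenine over thymine is largest at 3 bp, at 3.20.

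Across different CpGs the neighbouring base went with methylation in the same direction as between alleles at some combinations and in the opposite direction at others. Among control CpGs with C at the 1 bp position the level over the animals was 79.7%, with G 77.6%, with A 75.7% and with T 75.8%. At 2 bp the levels were 80.2% for A, 77.5% for T, 76.5% for C and 74.0% for G. Over the 60 combinations, 34 had the same sign across sites as between alleles. Pearson's r was 0.466 and Spearman's rho 0.226 over combinations that share CpGs, given as a description. Opposite signs were found for A over G at 6 bp, with 1.59 across sites and -1.62 between alleles, and for C over T at 8 bp, with -1.25 and 1.48. The values between alleles, and the count of 34, include SNVs that change a CpG. Without those SNVs A over G at 6 bp was -0.42. C over T at 8 bp was then -0.04, no longer opposite to the sign across sites, at an adjusted p of 0.526 in the exact permutation test. Part of the opposite signs thus went with SNVs that change a CpG.

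Some SNVs made or removed a second CpG beside the member. Such an SNV removed a CpG in C3 at 37914 members and added 1 in C3 at 37124, while 183495 members had an SNV that left CpGs unchanged. Where only B6 had the second CpG, the member was methylated at 83.0% in B6 and at 79.7% in C3. Where only C3 had it, the member was at 78.6% in B6 and at 83.3% in C3. The allele with the second CpG was higher by 3.95 ± 0.07 percentage points (SE), at p = 0.00216 in the exact permutation test.

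The difference between the 2 sets of members in each animal, divided by 2, had a low of 2.00, a median of 2.14 and a high of 2.31 percentage points in B6, and -1.91, -1.81 and -1.65 in C3. The 12 F1 animals lay at 0.20 to 0.35, between the strains and without overlap with either. SNVs that were transitions gave 3.82 ± 0.07 (SE) and transversions 4.58 ± 0.09.

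By distance the allele with the second CpG was higher by 9.91 ± 0.17 percentage points (SE) at 1 bp, 1.94 ± 0.07 at 2 bp, and 3.78 to 4.15 from 3 to 8 bp, then 3.43 ± 0.07 at 9 bp and 2.91 ± 0.09 at 10 bp. All 10 distances passed at an adjusted p of 0.00216 in the exact permutation test. In the 1 bp class, which holds the doublet CGCG, the allele with the second CpG has C beside the member. Without such SNVs C over T at 1 bp was still 6.85, over 3439 members with C in B6 and 3294 with C in C3, and A over C was -6.82, each at an adjusted p of 0.00295 in the exact permutation test.

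**Figure D2:**
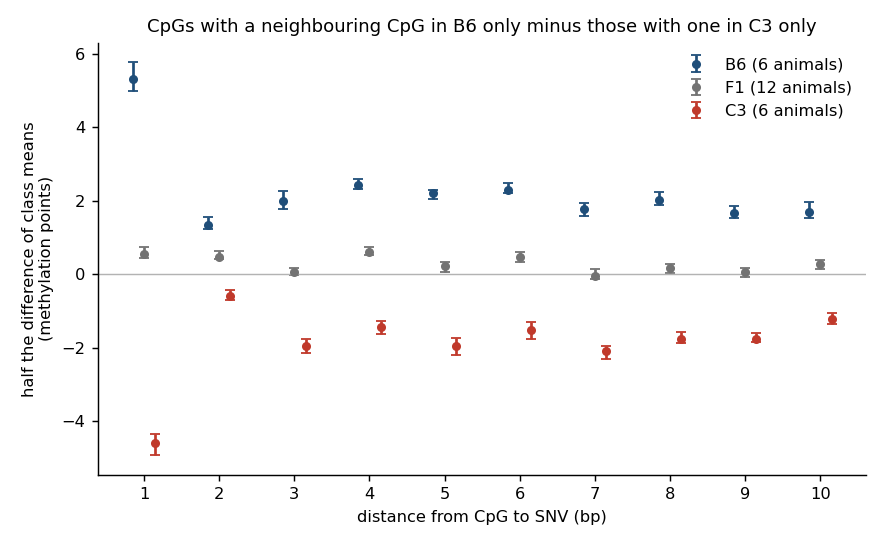
The difference between members with a neighbouring CpG in B6 only and members with 1 in C3 only, divided by 2 (percentage points of methylation), against the distance from the CpG to the SNV in bp. Points are means and bars reach from the lowest to the highest animal of B6, C3 and F1, and the strains stand apart at every distance with the F1 animals between them.

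Motifs of DNA-binding proteins were read across the SNV on both strands of each allele, in 253721 members with no other SNV within 8 bp of it. For factors of liver, FOXA was searched as TGTTTAC, HNF4 as CAAAGTC, HNF1 as GTTAAT, C/EBP as TTGCNNAA, ONECUT as ATCGAT, the zinc finger family GATA as AGATAA, nuclear receptors as AGGTCA and AHR, the dioxin receptor, as GCGTG. For broadly present factors, ETS was searched as CCGGAAG, the E-box as CACGTG, NRF1 as GCGCNTGCG, SP/KLF as CCGCCC, CTCF as AGGGGGC, NFY as CCAAT, AP-1 as TGANTCA, YY1 as AAGATGGC, STAT as TTCNNNGAA, RFX as GTTGCCAT, TEAD as GGAATG, ZFP57 as TGCCGC and CREB as TGACGTCA, where N is any base. An SNV placed such a motif in 1 allele only at 0.0516 to 3.61% of the members read. CREB, with 46 and 60 members, had too few for a test.

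Of the 20 motifs tested 19 passed at an adjusted p below 0.05 in the exact permutation test, 12 with the allele that has the motif lower and 7 with it higher. That count is read against all words of 6 bases treated the same way, of which 82.5% passed, 50.4% with the word lower and 32.1% with it higher, so the share of motifs that passed is no result about motifs. Their sizes can be compared with the words, of which 3.32% were lower by 2 percentage points or more and 11.25% higher by as much.

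Of the 8 motifs of liver factors 5 were lower where they appeared and 2, AHR and ONECUT, a cut-homeodomain family, were higher. With the FOXA motif in B6 only, at 185 members, methylation was 74.3% in B6 and 77.95% in C3, and with the motif in C3 only, at 178 members, it was 81.2% in B6 and 79.4% in C3. With controls subtracted, B6 minus C3 was -2.79 percentage points in the first set and 2.56 in the second, and the allele with the motif minus the allele without was -2.68 ± 0.15 (SE) over both. HNF4, a nuclear receptor of hepatocytes, was at -3.02 ± 0.17, GATA, a family of zinc finger factors, at -2.91 ± 0.09, and C/EBP, leucine zipper factors of liver genes, at -2.65 ± 0.11. The AGGTCA motif of nuclear receptors was at -2.39 ± 0.08. HNF1, a homeodomain factor of hepatocytes, was at -0.30 ± 0.14 and did not pass, at an adjusted p of 0.0693 in the exact permutation test.

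FOXA motif alleles separated the strains in every animal. The difference between the 2 sets, divided by 2, had a low of -3.93, a median of -3.47 and a high of -2.93 percentage points in B6, and -0.99, -0.72 and -0.57 in C3, with the F1 animals at -2.89 to -1.53. HNF4 lay at -2.79, -2.44 and -2.07 in B6 and at 0.33, 0.43 and 1.17 in C3. Neither overlapped between the strains. Of the other motifs tested only HNF1, NRF1, YY1 and STAT overlapped. Even NFY, at -0.59 ± 0.05 (SE), and TEAD, at -0.56 ± 0.12, did not. The lack of overlap is therefore no result about FOXA or HNF4.

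The E-box, bound by basic helix-loop-helix factors that a methylated central CpG hinders, had the lowest value of the list at -4.30 ± 0.08 percentage points (SE), over 1879 members in both sets. Its letters hold a CpG, which can be the member itself. CTCF, the insulator protein, was at -2.39 ± 0.25, with B6 minus C3 at -3.53 where B6 had the motif and 1.24 where C3 did, and at -1.50 without SNVs that change a CpG. AP-1 was at -1.90 ± 0.15, and at -0.26 with an adjusted p of 0.185 in the exact permutation test once SNVs that change a CpG were left out.

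Other than the E-box, motifs whose letters hold CG were higher where they appeared, as were words with CG in general. In sires the 604 words of 6 bases with CG had a median of 1.62 percentage points and the words without CG one of -0.48. AHR was at 3.40 ± 0.05 percentage points (SE), over 4675 members with the motif in B6 and 4480 in C3, ZFP57, a zinc finger protein that binds a methylated sequence at imprinted loci, at 2.77 ± 0.10, ETS at 2.24 ± 0.15, SP/KLF at 1.83 ± 0.10 and ONECUT at 1.57 ± 0.14. NRF1 was at 0.80 ± 0.31 with overlap between the strains, at an adjusted p of 0.0365 in the exact permutation test, and had too few members without SNVs that change a CpG. Without those SNVs AHR, ZFP57, ETS, SP/KLF and ONECUT were 3.35, 2.55, 1.15, 0.83 and 0.11, and E-box, HNF4, GATA, FOXA and C/EBP were -5.29, -2.72, -2.78, -2.30 and -1.97. Of 18 motifs with enough members left, 15 then passed. NFY turned from -0.59 to 0.39, TEAD and ONECUT no longer passed, and HNF1 passed at -0.48 with an adjusted p of 0.0234 in the exact permutation test. STAT, YY1 and HNF1 had opposite signs on chromosomes of odd and of even number.

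**Figure D3:**
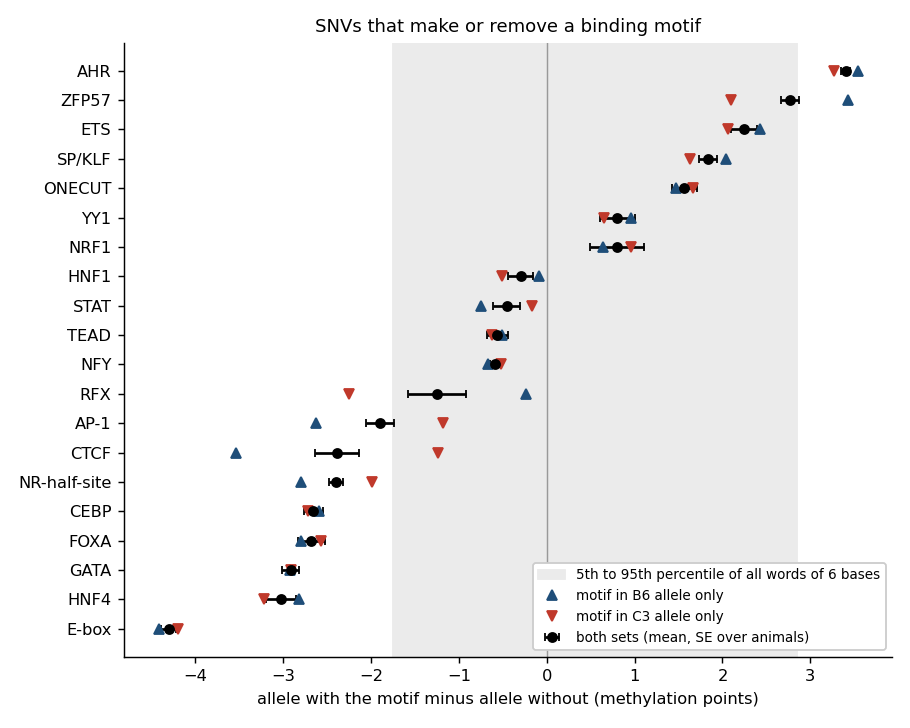
Allele with the motif minus allele without (percentage points of methylation) for each of 20 motifs. Black points are both sets with the SE over animals, triangles are the set with the motif in B6 only and the set with it in C3 only, and the grey band spans the 5th to 95th percentile of all words of 6 bases. E-box, HNF4, GATA, FOXA, C/EBP, the nuclear receptor motif, CTCF and AP-1 lie below the band and AHR above it. The band pools words with CG, whose median in sires was 1.62, and words without CG, at -0.48, while AHR and the E-box hold a CG. Points and band include SNVs that change a CpG, and without those SNVs CTCF is at -1.50 and AP-1 at -0.26.

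Without a list of factors, 2080 words of 6 bases had at least 100 members in each direction. They were ranked in sires and then read in dams. AACGTT, the lowest, was at -6.11 percentage points in sires and -6.38 in dams. AAACGT, at -5.92 and -6.31, and AACGTG, at -4.86 and -4.95, were also lower than the E-box. CACGTG, the E-box, was at -4.26 and -4.35. AACGCG, the highest, was at 6.64 in sires and 7.499 in dams. Among words without CG the lowest was AGATAA, the GATA motif, at -3.04 in sires and -2.78 in dams over 534 and 546 members, followed by TGCCAA at -2.90 and -3.19. The highest without CG was ATATAC at 1.63 in sires and 1.57 in dams. In dams 92.6% of words had the sign they had in sires, with Pearson's r = 0.989 over words that share CpGs, given as a description.

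Differences at single members were counted as differentially methylated CpGs (DMCs), those with p below 1e-05 in a beta-binomial Wald test of the 12 parents on the read counts. Among members 8575 of 270690 were DMCs, or 3.17%, against 0.604% of controls and 0.429% of all 15353324 CpGs tested. Of the member DMCs 3627 were higher in B6 and 4948 in C3, or 42.3% higher in B6, where 0.196% of all tested CpGs were called with B6 higher and 0.233% with C3 higher. The share of DMCs was 2.53% of members with exactly 1 SNV within 100 bp, 3.46% with 2 and 4.06% with 3 or more.

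The DMC share was highest next to the CpG. It was 7.34% at 1 bp, 3.68% at 2 bp and 2.99% at 3 bp, then 2.26 to 2.46% from 4 to 10 bp. Just outside, at 11 bp, it was 2.27%, beside 2.26% at 10 bp, so nothing marks the 10 bp limit itself. It fell on to 1.75% at 20 bp, 1.26% at 51 to 100 bp, 0.405% beyond 500 and up to 1000 bp and 0.0731% beyond 5000 bp. The median difference at a DMC did not follow distance in that way, at 29.8 percentage points at 1 bp and 32.2 at 10 bp.

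**Figure D4:**
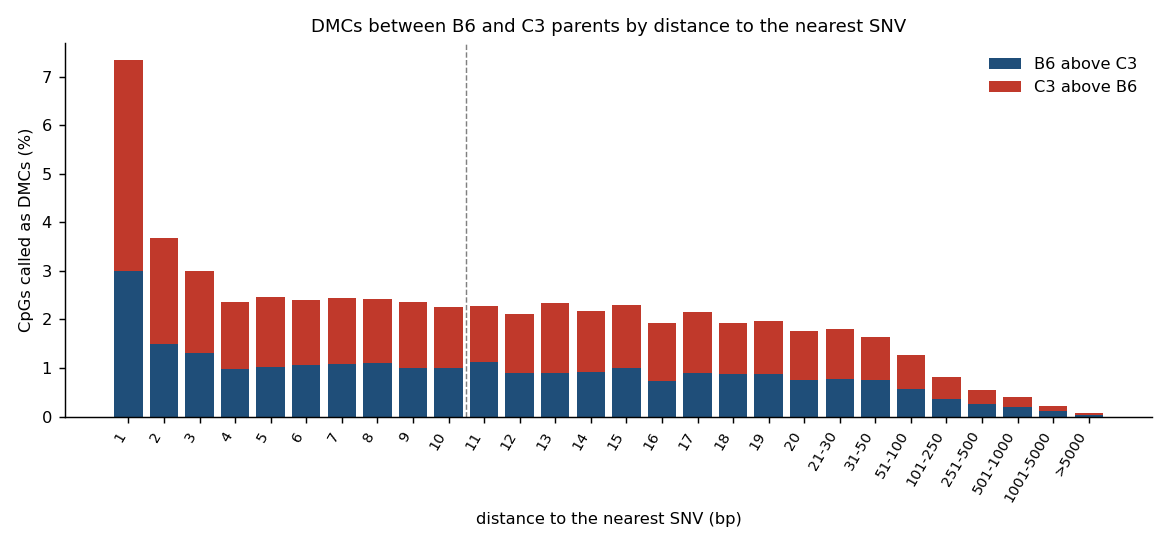
Percent of CpGs called as DMCs between B6 and C3 parents against the distance to the nearest SNV in bp, with the share higher in B6 in blue and the share higher in C3 in red. The dashed line marks 10 bp, and the share is 7.34% at 1 bp and 2.26% at 10 bp.

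At 1 bp the direction of the DMCs went with the substitution. With A to C, 324 of 2514 members were DMCs, or 12.9%, and 3.09% of these were higher in B6. With T to C the share was 12.3%, with 2.33% higher in B6, and with C to T it was 8.89%, with 96.2% higher in B6. With A to T, which had 29 DMCs among 1174 members, 34.5% were higher in B6.

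At 2 bp the direction was another. With A to G 83.3% of 120 DMCs were higher in B6 and with G to A 10.6% of 179, whereas at 1 bp these had been 7.96% of 201 and 83.5% of 115. A over G thus went with opposite directions at 1 and 2 bp.

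A second CpG also went with direction. Where only B6 had it, 3.96% of members were DMCs and 83.6% of those were higher in B6. Where only C3 had it, 5.04% were DMCs and 10.96% of those were higher in B6. Over all 10 distances members whose SNV left CpGs unchanged had 2.52% DMCs, of which 41.5% were higher in B6. At 1 bp the shares of DMCs were 14.6% with the second CpG in B6 only, 17.9% with it in C3 only and 5.55% with CpGs unchanged. At 2 bp they were 3.57%, 3.24% and 3.58%, so a second CpG brought no larger share there.

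DMCs called in 1 sex were read in the other. Among members 3205 were DMCs in sires alone, or 1.18%, where 0.189% of all tested CpGs were, and 3198 of them, or 99.8%, had the same direction in dams. Control DMCs of sires did so nearly as often, in 9751 of 9803, or 99.5%. The median difference at member DMCs was 43.1 percentage points in the sires that called them and 39.4 in the dams, where it was 39.5 at control DMCs.

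The difference extended to neighbouring CpGs. At sire DMCs among members the dams differed by a mean of 40.2 percentage points in the direction of the sires, and other tested CpGs within 50 bp of them by 31.2, at 51 to 100 bp by 20.99, from there to 250 bp by 14.8 and beyond 1000 and up to 2000 bp by 1.46. Around the 814 sire DMCs with the SNV at 1 bp the difference fell from 38.3 at the CpG to 20.5 within 50 bp and 11.4 at 51 to 100 bp. Around the 1485 with the SNV at 5 to 10 bp it fell from 41.8 to 35.3 and 25.2, and around 9803 sire DMCs among controls from 40.5 to 26.8 and 21.6. Further out the control value was above that of members, at 17.7 beyond 100 and up to 250 bp and 3.59 beyond 1000 and up to 2000 bp. Neighbours can be DMCs themselves, and several can share 1 DMC, so these are means without a test.

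The named CpGs show these differences animal by animal. The rule took 31 CpGs from the DMCs with 1 SNV within 10 bp and no overlap between the strains, 17 in introns, 12 between genes and 2 in coding sequence, whose strain means differed by 36.2 to 97.3 percentage points on 10 to 54 reads per animal. At all 31 the mean of the F1 animals lay between the means of the strains.

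At the Eri1 CpG, with the SNV at 5 bp, the 6 B6 animals lay at a low of 94.7%, a median of 98.3% and a high of 100%, and the 6 C3 animals at 0%, 0% and 2.63%. The 12 F1 animals lay at 40.0 to 63.0% with a median of 49.0%. The strains were nearly fully methylated and nearly unmethylated, and all F1 animals stood between.

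Near Otud7a, with the SNV at 2 bp, B6 lay at 89.3%, 93.3% and 96.7% and C3 at 0% in all 6 animals. Near Ano1, with the SNV at 5 bp, B6 lay at 0%, 2.38% and 6.67% and C3 at 80.6%, 95.0% and 96.7%. Both had F1 animals between the strains, at 23.1 to 60.0% and 26.1 to 63.0%.

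The CpGs where C3 has a second CpG were ranked for their direction, so that direction is no result. In BC048546, with the SNV at 10 bp, B6 lay at 91.2%, 95.1% and 97.4% and C3 at 0%, 0% and 7.14%, so the strain without the second CpG was the higher. Near Bhlhe23 B6 lay at 0%, 4.78% and 10.7% and C3 at 76.0%, 87.3% and 93.8%. In Snap47, where the added CpG adjoins the member, B6 lay at 7.69%, 16.8% and 25.8% and C3 at 92.9%, 96.3% and 100%.

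Tlr6 had its CpG 69 bp upstream of the start site, with B6 at 66.0%, 79.9% and 85.7% and C3 at 0%, 1.35% and 5.56%. Its F1 animals lay at 32.7 to 64%. Phf20 had B6 at 81.6%, 89.6% and 92.9% and C3 at 0%, 12.5% and 14.8%, and it is also the CpG named for the AHR motif, which B6 holds. Both were more methylated in B6.

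Rfxank, where the C3 base adds a CpG, was more methylated in C3, with B6 at 8.33%, 15.03% and 23.3% and C3 at 80.8%, 86.3% and 94.7%. Its F1 animals spread from 15 to 68.8% on 16 to 40 reads per animal. Tap1 had B6 at 13.8%, 27.9% and 48.5% and C3 at 91.7%, 96.2% and 100%. Its B6 sires lay at 35.7 to 48.5% and its B6 dams at 13.8 to 20.0%, with 3 animals each and no test. There the SNV removed a second CpG in C3, the strain with more methylation, against the direction of most DMCs of that kind.

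For the following motifs, the rule took a CpG whose allele with the motif is lower. Polr1a, with the FOXA motif in B6 and the SNV at 9 bp, had B6 at 17.1%, 25.7% and 42.3% and C3 at 86.7%, 92.1% and 94.4%. The E-box CpG of Gm5087, with the motif in C3, where the SNV also removes the adjoining CpG, had B6 at 85.1%, 87.4% and 92.9% and C3 at 17.8%, 23.0% and 25.7%. In Ptprg, with the GATA motif in C3 and the SNV at 10 bp, B6 lay at 91.2%, 96.7% and 100% and C3 at 10.0%, 25.4% and 45.5%. The C3 sires of that CpG lay at 27.3 to 45.5% and the C3 dams at 10.0 to 23.5%, also without a test.

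Read depth moved with these SNVs. At the 367230 CpGs within 10 bp of an SNV, read without a minimum, B6 animals had 1.07 times the reads they had at controls and C3 animals 0.909 times, so that C3 over B6 was 0.852 relative to controls, at p = 0.00216 in the exact permutation test. With exactly 1 SNV within 100 bp C3 over B6 was 0.965, with 2 it was 0.870, with 4 it was 0.643 and with 6 or more 0.448. The minimum of 10 reads in each parent was met by 97.3% of these CpGs in B6 and by 74.5% in C3, so most CpGs that were left out fell short in C3. At control distances 90.7% of CpGs met it in B6 and 78.6% in C3, so C3 fell short there too. For isolated SNVs C3 over B6 in depth lay between 0.947 for A and T and 0.969 for C and T, with both directions of a pair pooled. All reads were aligned to mm9, the genome of a B6 substrain, and the part of alignment in the methylation differences was not tested.

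F1 animals carry 1 allele of each strain. Over all members, members minus controls in F1 lay 0.01 percentage points below the midparent. That had p = 0.177 in a permutation test of 12 F1 animals against 12 parents with 100000 resamples. The means were 2.220 in F1, 2.234 in B6 and 2.222 in C3. As the difference between the strains did not pass, this value cannot place the F1 animals between them. The place of each F1 animal between its parental strains at member DMCs was set at 0 for the C3 mean and at 1 for the B6 mean. It ranged over 0.550 to 0.560 in the 12 animals, with a mean of 0.554 ± 0.003 (SD), above 0.5 at p = 0.000488 in a two-sided exact sign-flip permutation test. That test takes the 12 animals as independent and both parental means as without error, although siblings share parents, and over 6 families its smallest p would be 0.031. B6C3F1 lay at 0.553 and C3B6F1 at 0.555. At control DMCs the position was 0.548 ± 0.003, and members lay 0.006 ± 0.004 above them, at p = 0.000488 in the same exact permutation test, the smallest p it can give, with the same limits.

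The position differed with the number of SNVs within 100 bp, a description with no test. It was 0.532 ± 0.006 (SD, n = 12) at member DMCs with exactly 1, 0.550 ± 0.004 with 2, 0.571 ± 0.008 with 3 and 0.601 ± 0.007 with 4 or more. With exactly 1 SNV the position of members was thus below that of control DMCs. The share of B6 in the summed mean reads of both strains at the same groups of member DMCs was 0.527, 0.544, 0.565 and 0.592. These reads were not scaled for the depth of the libraries. At control distances, without the count minimum, B6 had 29.1 reads per CpG and C3 25.1, so B6 had the larger share there too. How close the shares come to the positions is therefore no result. Split by direction, the position and the share did not go together. Member DMCs higher in B6 had a position of 0.566 and a share of 0.543, and those higher in C3 had 0.545 and 0.550. Control DMCs had 0.548 and 0.530. F1 animals had 0.929 times the reads of B6 at CpGs within 10 bp of an SNV relative to controls, where the midparent was 0.926.

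**Figure D5:**
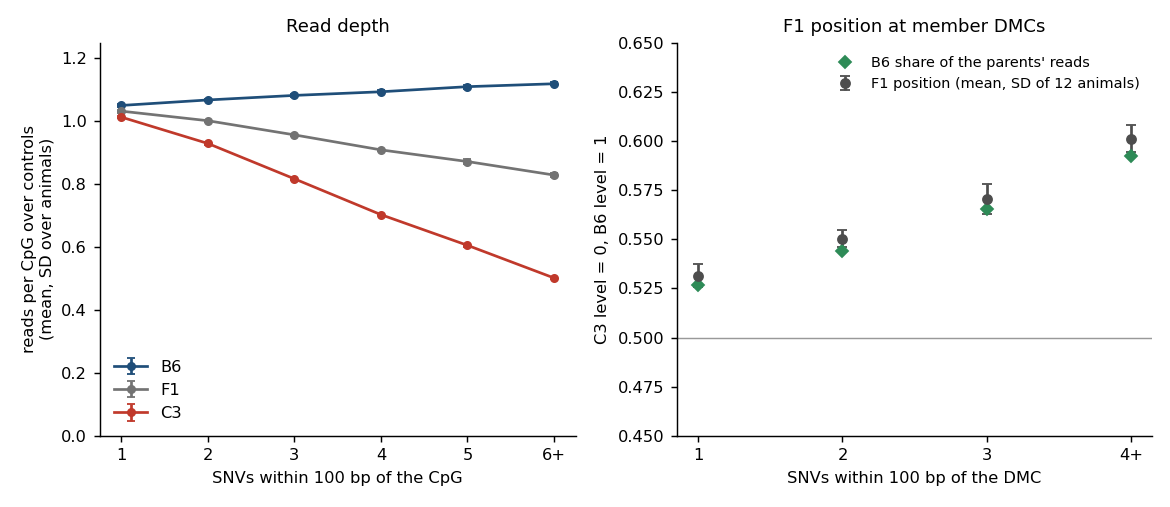
Left, reads per CpG over reads per control CpG in B6, F1 and C3 (mean with SD over animals) against the number of SNVs within 100 bp. Right, the position of F1 animals between C3 (0) and B6 (1) at member DMCs (mean with SD of 12 animals), with the share of B6 in the parents' reads. That share is not scaled for the depth of the libraries. Position and share rise from 0.532 and 0.527 with 1 SNV to 0.601 and 0.592 with 4 or more, on an axis that starts at 0.45.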

How the data were processed

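The authors deposited counts of methylated and unmethylated reads per CpG for each animal, and a list of SNVs with the base in mm9 and in each strain. Per the submitters' processing notes and the study's methods, reads were aligned to mm9 with Bismark 0.7.8 and Bowtie 0.12.8, duplicates were removed with Bismark's tool, and CpGs were kept only where mm9, the local assemblies of both strains and most bases read in each strain had the dinucleotide. The SNVs came from genome sequencing and local assemblies of both strains. The program that called them is not given in the sources used here. The counts were used without normalization in all 48 columns, with 0 others. The ChIP samples were not analysed here.

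The level of a class is the mean over its CpGs of percent methylation in each animal. Strains were compared by two-sided exact permutation tests of 6 against 6 animals with Benjamini-Hochberg adjustment within each family of tests, so p-values speak of animals and treat the CpGs as fixed. DMCs came from a beta-binomial Wald test after the model of DSS, unsmoothed, with dispersions shrunk per strain, tested on simulated data, over 15353324 CpGs. An adjusted p below 0.05 or, for DMCs, p below 1e-05 was called. Genes were those of GENCODE vM1 on mm9. Python 3.11.15, NumPy 2.4.6 and Numba 0.67.0 were used.

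Named CpGs were those with 1 SNV within 10 bp, a DMC, strains without overlap, at least 10 reads in all 24 animals, no dinucleotide repeat over 8 or more bases within 15 bp, not on chromosome 18, and 1 per 1000 bp. Of these were taken the 4 per direction with the largest difference, the 3 per direction within 1 kb of a start site, and 1 for each motif called. The members, the motifs and the lists were chosen with earlier results of these data known. Alternatives were 20 reads, summed counts, isolated SNVs, other controls, other DMC thresholds, a replicate block and leaving out each parent. Leaving out SNVs that change a CpG, odd against even chromosomes and sires against dams were chosen after seeing the data.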

Additional observations from a re-analysis of the deposited data

Results flagged for a closer look

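In 214 groups of 6 animals examined, 13 held an animal whose gap to the others was large for the spread of its group, where chance gives about 1 in 20. No animal was singled out in more than 2 of them. Values are percentage points relative to controls or differences of 2 sets divided by 2. Among substitutions, C3 dam 2 was at 2.73 for A to C where the other C3 animals lay at 2.55 to 2.60, B6 sire 2 at 0.70 for G to T (others 0.57 to 0.61), and C3B6F1 male 3 at 0.34 for T to G (others 0.28 to 0.30). Among base pairs, B6C3F1 female 1 was at 0.0703 for A over T (others -0.03 to -0.0028) and B6C3F1 male 1 at 0.0457 for C over G (others -0.03 to -0.0030). By distance, B6C3F1 male 1 was at 2.06 at 9 bp (others 1.96 to 1.99) and C3B6F1 male 1 at 1.91 at 10 bp (others 2.01 to 2.05).

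Among motifs, C3 dam 1 was at -0.99 for HNF1 (others -0.49 to -0.26), B6 dam 1 at -1.55 for C/EBP (others -1.23 to -1.07), and B6 sire 3 at 0.0041 for GATA (others 0.32 to 0.45). C3B6F1 male 2 was at -0.25 for NFY (others -0.46 to -0.39), C3B6F1 male 3 at -0.0604 for the nuclear receptor motif (others -0.55 to -0.38), and C3 dam 2 at 0.48 for STAT (others -0.39 to -0.10).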

How the results depend on the processing

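Of 174 values under alternatives, 147 kept their side of the threshold, moved by less than the spread or, for counts of calls, stayed within 1.5 times the main count. A stable count does not say that each sign held. Without SNVs that change a CpG 83.3% of base pairs and 81.7% of their combinations with distance had the sign of the main value, and of the 10 distances 40% did with summed counts and 60% with at least 20 reads or with controls weighted by methylation. The other exceptions were the small mean difference and the shares of DMCs. Members minus controls, B6 minus C3, was 0.0765 percentage points (p = 0.00433, exact permutation test) with at least 20 reads and 0.146 (p = 0.026, exact permutation test) with summed counts, where the main value of 0.01 did not pass. Distances called, 1 in the main test, were 4 with at least 20 reads, 4 with summed counts, 0 with controls beyond 500 and up to 1000 bp away (4 at an unadjusted p below 0.05), and 1 to 2 when 1 animal was left out. The cause was not tested. The replicate block was an exact sign-flip test over 6 pairs whose smallest p is 0.031. Under it distances called were 0 (1 at an unadjusted p below 0.05), where a single distance could not pass the adjustment over 10. Members minus controls had p = 0.219 in that exact test. Under the block 12 substitutions, 6 base pairs, 52 combinations with distance and 16 motifs were called. The second CpG (3.95) and the depth ratio (0.852) kept their calls at p = 0.031 in that exact test. Same-numbered B6 and C3 animals of a sex had deviations correlated at -0.02 to 0.15 over 120 classes. The labels do not say what the number stands for, and whether such animals shared a batch was not tested.

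DMCs were 3.41% of members and 0.506% of controls with at least 20 reads, 4.46% and 0.857% at p below 1e-04, 5.69% and 1.14% at an adjusted p below 0.05, 3.02% and 0.58% with a difference of at least 20 percentage points, and 2.78 to 2.91% of members when 1 parent was left out. Leaving out 1 parent gave 18 to 20 motifs called, 52 to 54 combinations, and 3.92 to 3.99 percentage points for a second CpG. Depth in C3 limits which CpGs are members, and errors are between animals only.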

Other observations

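Sires and dams gave the same order of bases with somewhat different sizes. Dams had borne and nursed litters, so sex and pregnancy or lactation cannot be told apart here. The allele with a second CpG was higher by 3.73 percentage points in sires and 4.18 in dams, a difference of -0.45 with an adjusted p of 0.05 over 50 such contrasts in an exact permutation test of sex within strain. That is the lowest adjusted p of the family, shared by 5 contrasts and not below the threshold, and 12 had an unadjusted p below 0.05. Substitution A to G was at -0.55 in sires and -0.76 in dams, with the same adjusted p in that exact permutation test.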
